A study of Mus musculus with 40 samples.

Results

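The genes examined were *Hbb-bs* and *Hbb-bt*, which encode adult beta-globin, *Hba-a1* and *Hba-a2*, which encode adult alpha-globin, and *Alas2*, which encodes the red cell form of the enzyme that starts haem synthesis. These 5 genes, of 47643 in the count tables, were picked by symbol after their levels by region and condition and their correlation between regions had been seen, so those values are given below as a description and carry no test. Levels are given as CPM, counts scaled to a common library size after normalization. Counts were found for 4 of the 5. *Hba-a2* was at 0 in all 40 libraries. Transcripts of *Hbb-bs* and *Hba-a1* were readily counted in every library of both brain regions. On average they were higher in post-KD than in pre-KD frontal cortex, with overlapping groups. There 0 of the 4 detected genes passed an adjusted threshold, beside 0.00560% of 17873 genes with edgeR and 0.0113% of 17639 with DESeq2. Cohorts that were high in 1 region tended to be high in the other.

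The libraries came from the hippocampus and the frontal cortex of wild-type Swiss Webster mice, which are outbred and were raised germ-free. According to the methods, the mice were females of 6 to 8 weeks on a control diet, were gavaged with stool from 1 of 10 human donors, and were dissected on day 4. Pre-KD cohorts received stool given before a ketogenic diet (KD), and post-KD cohorts received stool given on it, so that each of 10 donors has a cohort of each kind and each cohort gave 1 library per region. Every group thus held 10 libraries, in which tissue of 6 mice was pooled, and the spread between libraries is a spread between pools rather than between mice. All groups share the germ-free host, the colonization and the diet, and no uncolonized group was analysed here. The methods used here do not say whether the mice were perfused.

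Haemoglobin is assembled from a pair of alpha chains and a pair of beta chains, each holding a haem group, and carries oxygen in red cells. Red cell precursors make globin messages in very large amounts, and young red cells keep some of them after the nucleus has been lost, so globin messages are a familiar component of RNA from tissue that holds blood. Low levels have also been described in neurons and glia. In bulk tissue, fewer cells of a type and less RNA per cell cannot be told apart.

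The genes were chosen as transcripts of residual blood, and that name was set against red cell genes other than the globins. Of 26 such genes in the tables, 8 had no count in any library, among them *Rhag* (a Rhesus complex subunit), *Epb42* (a membrane skeleton protein) and *Gata1* (the erythroid transcription factor). *Slc4a1*, the anion exchanger that is among the most abundant red cell membrane proteins, had 1 count over 20 hippocampal libraries and 17 over 20 cortical libraries. *Hbb-bs* had 10102 and 12881 counts in the same libraries. The red cell genes with many counts were *Add2* (7623 and 9134), *Car2* (3409 and 3495), *Tmcc2* (3396 and 2769), *Sptb* (2803 and 2721), *Ank1* (833 and 1097) and *Bpgm* (806 and 813), several of which brain cells are also known to use. *Gypc*, another red cell membrane gene, had 72 and 95 counts. Some red cell membrane genes were thus at or near 0 while others were counted, and the level that each would have in red cell RNA beside this much *Hbb-bs* is not known here. The group is called haemoglobin genes and *Alas2* below, and its cell of origin was not tested.

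**Figure D1:**
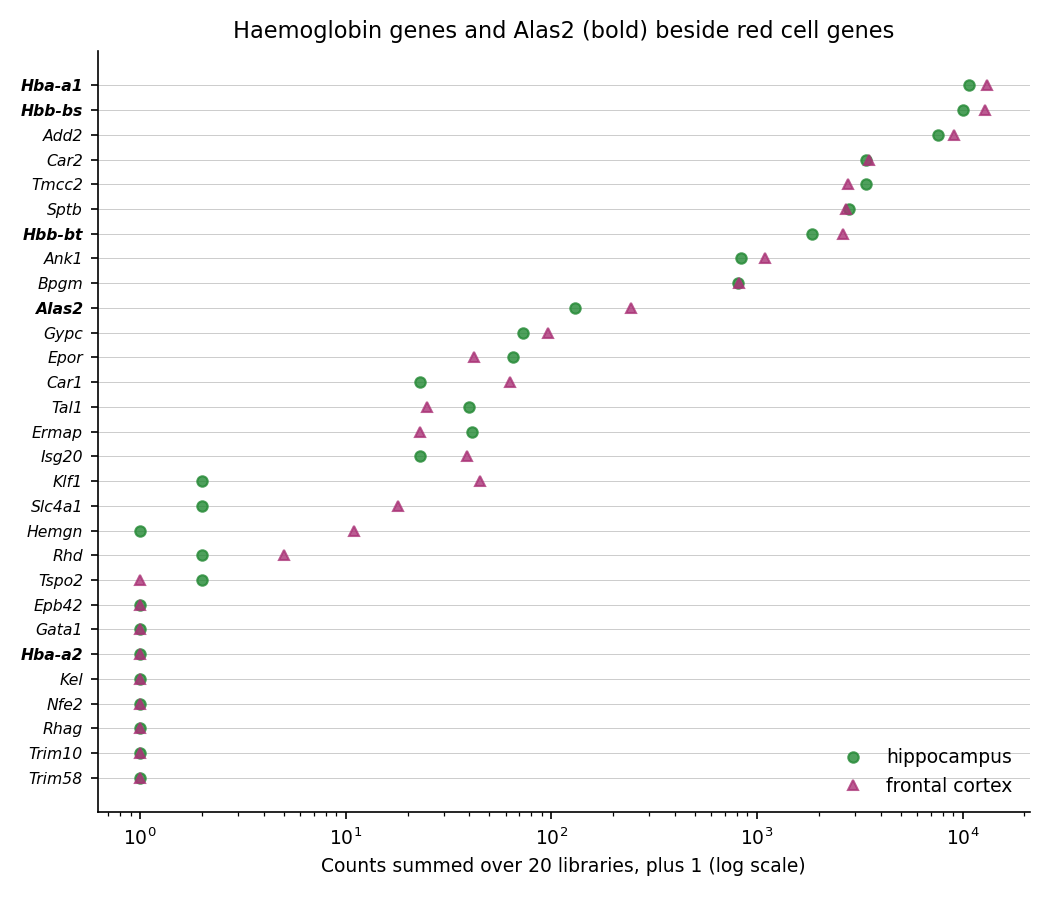
Counts summed over the 20 libraries of each region, plus 1, on a log scale for the haemoglobin genes and *Alas2* (bold) and 24 other red cell genes; circles are hippocampus and triangles frontal cortex. *Hba-a1* and *Hbb-bs* lie at the top with at least 10102 counts in each region, *Hbb-bt* sits among *Sptb* and *Ank1*, and *Hba-a2* lies with 7 other genes at 0 counts.

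The globin genes come in near-identical copies, and the stretches below show how little separates the copies within the coding sequence. In the GENCODE M21 transcripts (GRCm38, the build the authors name as mm10), the 429 coding bases of *Hba-a1* and *Hba-a2* differed at 1 position, written C381T when counted from 1 at the first coding base. The 444 coding bases of *Hbb-bs* and *Hbb-bt* likewise differed at 1 position, C417T. Both differences fall on base 3 of a codon, codon 127 in the alpha genes and codon 139 in the beta genes. The coding part of exon 3, 129 bases long, is printed along the transcript with the differing base in capitals. It lies at chr11:32284263-32284391 (plus strand) for *Hba-a1*, chr11:32297080-32297208 (plus strand) for *Hba-a2*, chr7:103826665-103826793 (minus strand) for *Hbb-bs* and chr7:103812656-103812784 (minus strand) for *Hbb-bt*.
Hba-a1: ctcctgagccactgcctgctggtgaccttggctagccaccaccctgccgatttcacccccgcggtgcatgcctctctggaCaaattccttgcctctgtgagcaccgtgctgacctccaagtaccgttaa
Hba-a2: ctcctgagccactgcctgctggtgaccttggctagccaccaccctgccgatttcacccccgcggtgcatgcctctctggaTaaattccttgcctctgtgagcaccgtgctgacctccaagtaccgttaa
Hbb-bs: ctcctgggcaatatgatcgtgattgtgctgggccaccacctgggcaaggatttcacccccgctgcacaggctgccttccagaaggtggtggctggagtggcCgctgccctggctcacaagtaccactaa
Hbb-bt: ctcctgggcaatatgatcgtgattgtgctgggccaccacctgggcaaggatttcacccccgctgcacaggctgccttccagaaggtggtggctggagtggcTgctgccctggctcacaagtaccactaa

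Outside the coding sequence the copies differed more. Of all windows of 69 bases, the length of a read, along the longest coding transcript, 36.5% were found in no other gene for *Hba-a1* (230 of 631), 17.5% for *Hba-a2* (85 of 486), 35.4% for *Hbb-bs* (198 of 560) and 43.0% for *Hbb-bt* (273 of 635). Every other window of the alpha genes occurred in the other alpha gene, and every other window of the beta genes in the other beta gene. These shares take reads to come from any part of the transcript, which was not checked. A read within a shared window cannot be placed between copies by its letters alone, so the counts of each copy, and the split between copies, are uncertain. The reference is not of the Swiss Webster stock, and the alternative beta-globin symbols *Hbb-b1* and *Hbb-b2* were not matched in the tables.

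The 120 bases before the RefSeq start (GRCm38.p6) of each of the 4 globin genes held the CACCC motif, the CCAAT motif and the TATAA motif on either strand, with no overlap between motifs. Among the same windows of 32851 promoters, 31.7% held CACCC, 21.3% CCAAT and 11.8% TATAA, and 0.688% held all 3. The *Alas2* window held CACCC 3 times and GATAA once, the latter found in 10.5% of promoters, and neither of the other motifs. These are matches of letters and not mapped sites.

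The deposited tables held 1140756 to 1947416 counts per hippocampal library and 1188447 to 2095352 per cortical library. At that depth 3 counts, taken as the floor that a count of 0 allows, correspond to 1.54 to 2.63 CPM in the hippocampus and 1.43 to 2.52 CPM in the frontal cortex. The floor is scaled to total counts without the normalization factor, and it covers counting error only. The gene with the most counts, *Gm42418*, took 8.63% to 17.96% of a hippocampal library and 9.79% to 18.02% of a cortical library. Over 20 libraries each, the summed globin level correlated with total counts at Pearson r = 0.14 (Spearman rho = 0.029) in the hippocampus and 0.27 (0.18) in frontal cortex. With the share of *Gm42418* the values were -0.32 (-0.44) and 0.21 (0.16), and with the normalization factor 0.14 (0.33) and -0.23 (-0.17). Region markers followed the labels: 5 of 8 hippocampal neuron genes passed the adjusted threshold as higher in the hippocampus, beside 2.85% of all genes in either direction, with *Spink8* the furthest at a log2 fold change of 5.14 (SE 0.98), while 3 of 8 neocortical genes passed as lower, with *Lamp5* at -1.33 (SE 0.21), and *Fezf2* passed as higher (0.88, SE 0.23). Of the general neuronal genes 3 of 8 passed as lower in the hippocampus, *Gad2* by the most (-0.50, SE 0.14), all by edgeR's quasi-likelihood test.

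Of the beta-globin genes, *Hbb-bs* (ENSMUSG00000052305, chr7:103826534-103828096, minus strand) carried most of the counts. In the hippocampus its level ran from 209 to 581 CPM with a median of 280 over 10 pre-KD libraries, and from 194 to 559 CPM with a median of 328 over 10 post-KD libraries. The group means were 317 ± 111 and 331 ± 101 CPM (SD, n = 10). The ranges overlapped throughout, the post-KD library was the higher for 5 of 10 donors, and edgeR put the log2 fold change at 0.06 (SE 0.16). It was -0.08 without donor 2 and 0.22 without donor 6.

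In the frontal cortex *Hbb-bs* ran from 132 to 598 CPM (median 315) in pre-KD libraries and from 247 to 599 CPM (median 430) in post-KD libraries. The means were 327 ± 130 and 434 ± 114 CPM (SD, n = 10), a log2 fold change of 0.41 (SE 0.15), which ran from 0.30 (without donor 4) to 0.56 (without donor 6) when a donor was left out. DESeq2 gave 0.42 (SE 0.22), and the mean log2 CPM of the libraries differed by 0.47 (SE 0.23). The groups again overlapped. The post-KD library was the higher for 6 of 10 donors, and the largest single difference between the libraries of a donor was 1.75 on the log2 scale, for donor 5, whose pre-KD cortex held the lowest *Hbb-bs* of that group.

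*Hba-a1* (ENSMUSG00000069919, chr11:32283511-32284465, plus strand) stood for all counts of alpha-globin. Hippocampal levels were 174 to 547 CPM (median 327) in pre-KD and 242 to 569 CPM (median 297) in post-KD libraries, with means of 329 ± 93.1 and 362 ± 127 CPM (SD, n = 10). The higher library was post-KD for 5 of 10 donors, and the log2 fold change was 0.14 (SE 0.16). It was -0.02 without donor 5, 0.03 without donor 4 and 0.29 without donor 6. Per kilobase of exon the hippocampal means over all 20 libraries were 426 CPM for *Hba-a1* and 422 CPM for *Hbb-bs*. This scaling takes reads to come from the whole transcript, which was not checked.

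Of the 5 genes, *Hba-a1* had the most post-KD libraries above the pre-KD range in the frontal cortex. Its pre-KD libraries ran from 122 to 471 CPM (median 309) and its post-KD libraries from 231 to 693 CPM (median 456). Means were 326 ± 112 and 456 ± 145 CPM (SD, n = 10), and the log2 fold change was 0.49 (SE 0.15), or 0.38 to 0.60 with a donor left out. DESeq2 gave 0.49 with a larger error (SE 0.22), and the mean log2 CPM of the libraries differed by 0.51 (SE 0.24). Of the 10 post-KD libraries 5 lay above every pre-KD library, while 2 pre-KD libraries lay below every post-KD one. The post-KD library was the higher for 8 of 10 donors.

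*Hbb-bt* (ENSMUSG00000073940, chr7:103812524-103813996, minus strand), the smaller beta-globin contributor, had the higher post-KD library for 6 of 10 donors in each region, with cortical means that were nearly equal. In the frontal cortex it ran from 44.4 to 111 CPM (median 79.0) in pre-KD and from 38.7 to 122 CPM (median 77.2) in post-KD libraries, with means of 78.3 ± 19.5 and 77.8 ± 25.2 CPM (SD, n = 10) and a log2 fold change of -0.01 (SE 0.20). In the hippocampus the ranges were 34.0 to 90.8 CPM (median 49.9) and 14.8 to 185 CPM (median 57.7), the means 54.3 ± 16.4 and 63.0 ± 46.1 CPM, and the log2 fold change 0.22 (SE 0.30). The post-KD library of donor 2 held 185 CPM, against 66.4 CPM in the next highest, and the log2 fold change was -0.15 without donor 2 and 0.42 without donor 6.

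*Alas2* (ENSMUSG00000025270, chrX:150547375-150570638, plus strand) was near the limit of detection. It had 130 counts in all hippocampal and 242 in all cortical libraries. In the hippocampus 4 pre-KD and 3 post-KD libraries were at 0, and it reached 10.6 CPM and 15.6 CPM in the highest of each group, with means of 3.55 ± 4.61 and 4.82 ± 5.85 CPM (SD, n = 10). The cortical means were 7.46 ± 5.42 and 7.10 ± 4.95 CPM, with 1 pre-KD library at 0. The log2 fold changes were 0.43 (SE 1.22) in the hippocampus and -0.07 (SE 0.71) in frontal cortex, both smaller than their errors. They ran from -0.12 (without donor 5) to 0.91 (without donor 8) and from -0.23 (without donor 5) to 0.16 (without donor 6).

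*Hba-a2* (ENSMUSG00000069917, chr11:32296489-32297298, plus strand) had no count in any library of either region. A count of 0 allows up to 3 counts per library, which is at most 2.63 CPM before the normalization factor. Its neighbour *Hba-a1* had at least 157 counts in each library. With the shared windows described above, the counts do not tell whether *Hba-a2* was transcribed.

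**Figure D2:**
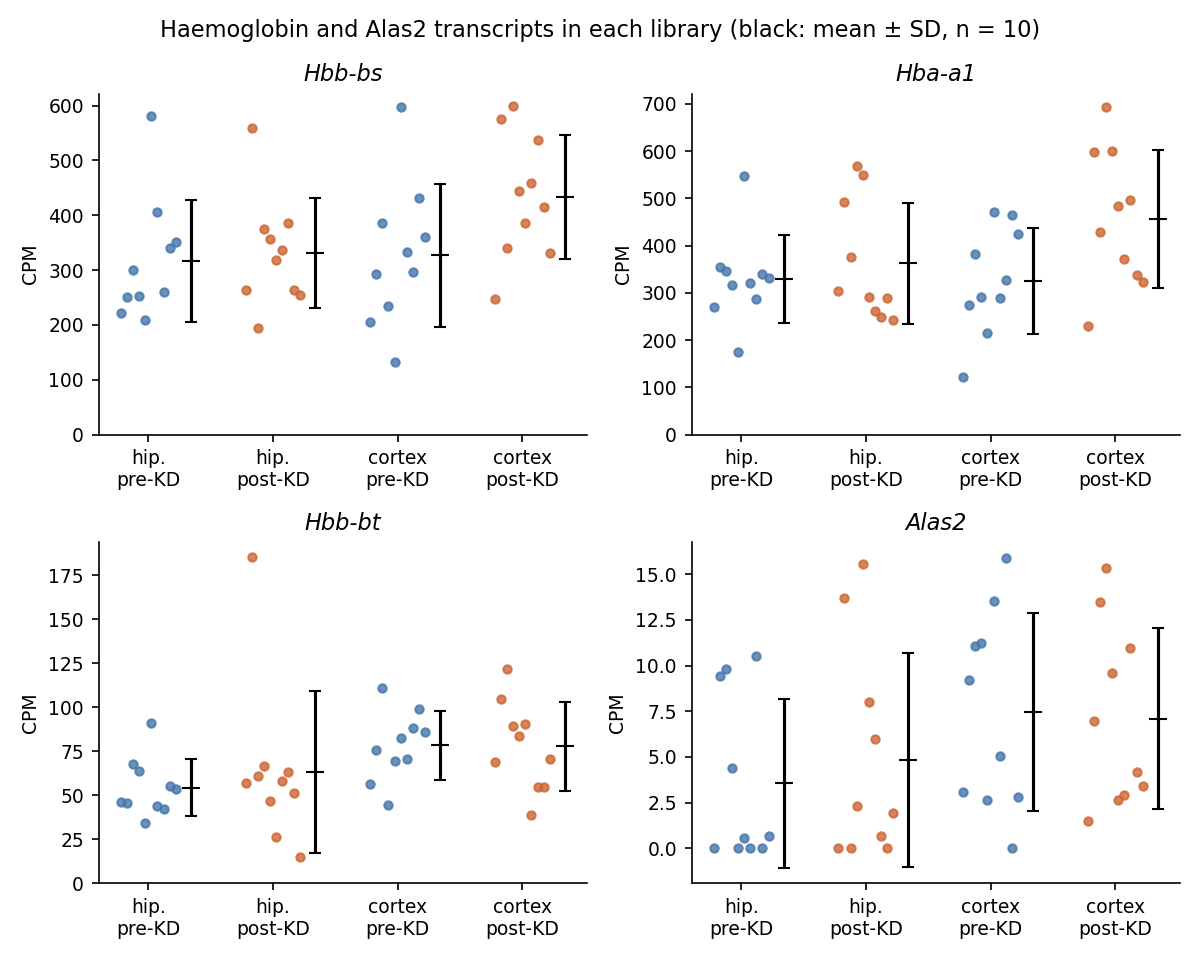
CPM of *Hbb-bs*, *Hba-a1*, *Hbb-bt* and *Alas2* in each library by region and condition, with 10 points per group in donor order and the mean ± SD in black; the vertical scales differ. Post-KD cortical libraries reach 599 CPM for *Hbb-bs* and 693 CPM for *Hba-a1*, every pair of groups overlaps, and the post-KD hippocampal library at 185 CPM of *Hbb-bt* stands above the rest.

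The spread between the libraries of a region, both conditions together, is given beside the part that counting alone would give. For *Hbb-bs* the coefficient of variation over 20 hippocampal libraries was 32.0%, against 4.45% for counting alone at the mean count, and over 20 cortical libraries it was 34.4% against 3.94%. *Hbb-bt* varied by 57.9% against 10.4% in the hippocampus and by 28.1% against 8.73% in the frontal cortex. Without the post-KD library of donor 2, a step added after the data were seen, the hippocampal value was 32.1%. *Alas2* varied by 123% against 39.2% and by 69.4% against 28.7%.

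Summed over the globin genes, the hippocampus held 418 to 1219 CPM (median 683) in pre-KD and 512 to 1237 CPM (median 646) in post-KD libraries. The means of 701 ± 211 and 756 ± 230 CPM (SD, n = 10) differed by 0.11 (SE 0.18) in mean log2 CPM, and the post-KD library was the higher for 5 of 10 donors. The medians ran the other way, by -0.08, and without donor 5 the difference was -0.01. In the frontal cortex the sum was 384 to 1151 CPM (median 702) in pre-KD and 546 to 1381 CPM (median 925) in post-KD libraries, with means of 732 ± 246 and 968 ± 255 CPM. That difference was 0.43 (SE 0.21), with the post-KD library higher for 7 of 10 donors, between -0.30 for donor 9 and 1.44 for donor 5. Leaving out a donor moved it to between 0.32 (without donor 5) and 0.52 (without donor 9).

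How many genes of the whole tables moved in the same comparison is the background for these values. In the hippocampus, edgeR gave an adjusted p under 0.05 to 0.00570% of 17529 genes and an unadjusted p under 0.05 to 10.1%, and DESeq2 to 0% and 3.42%. None of the 4 detected genes was among them. In the frontal cortex the shares were 0.00560% and 9.68% of 17873 genes with edgeR and 0.0113% and 4.62% with DESeq2. There 0 of 4 passed an adjusted threshold, and *Hbb-bs* and *Hba-a1* fell among the unadjusted edgeR calls, with *Hba-a1* also in DESeq2. The genes were selected on this contrast, so nothing is read from that count. The median log2 fold change over all genes tested was -0.0076 in the hippocampus and 0.0087 in frontal cortex.

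**Figure D3:**
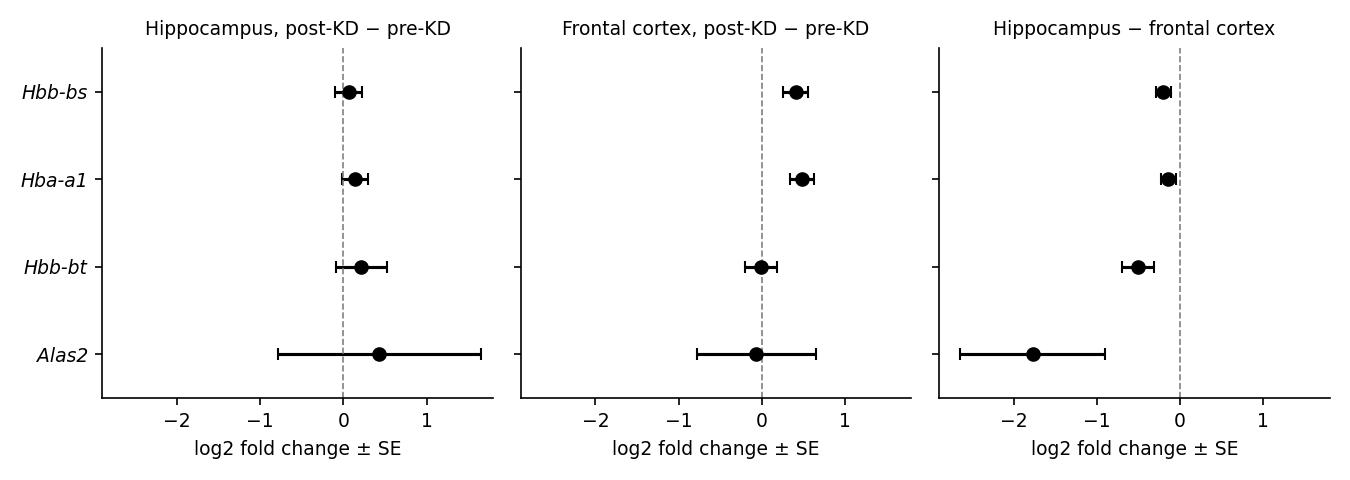
edgeR log2 fold change for the 4 detected genes, post-KD minus pre-KD in each region and hippocampus minus frontal cortex. Bars are standard errors derived from the F statistic of each test. In the frontal cortex *Hbb-bs* (0.41) and *Hba-a1* (0.49) lie to the right of 0, *Hbb-bt* lies at -0.01, and *Alas2* has the widest bars in every panel.

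The estimated change from pre-KD to post-KD was smaller in the hippocampus than in the frontal cortex for *Hbb-bs* and *Hba-a1*. In a fit with a term for each of 20 cohorts, the hippocampal log2 change minus the cortical one was -0.39 (SE 0.18) for *Hbb-bs*, -0.38 (SE 0.18) for *Hba-a1*, 0.07 (SE 0.39) for *Hbb-bt* and 0.68 (SE 1.67) for *Alas2*. Of 19422 genes, 0.0154% passed the adjusted and 2.22% the unadjusted threshold of this term with edgeR, and 0% and 4.89% with DESeq2. The 4 genes gave 0 adjusted calls, while *Hbb-bs* and *Hba-a1* were under the unadjusted threshold with both tools, a description again since both contrasts chose them. Without the cohort term 0 of 4 were under it, beside 9.10% of all genes, with -0.34 (SE 0.23) for each of these 2 genes.

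On average over cohorts the globin genes were lower in the hippocampus than in the frontal cortex. Within a cohort the summed level differed by a mean log2 of -0.20 ± 0.31 (SD, n = 20), with the frontal cortex higher in 13 of 20 cohorts. The pre-KD cohorts contributed -0.03, with 4 of 10 higher in the frontal cortex, and the post-KD cohorts -0.36, with 9 of 10. By gene, the log2 fold change of hippocampus over frontal cortex was -0.20 (SE 0.09) for *Hbb-bs*, -0.14 (SE 0.09) for *Hba-a1*, -0.51 (SE 0.19) for *Hbb-bt* and -1.77 (SE 0.87) for *Alas2*.

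The scale of this comparison was not centred on 0. The median log2 fold change of all 19422 genes was -0.17 under TMM normalization, and *Hbb-bs* and *Hba-a1* lay on either side of it, while *Hbb-bt* and *Alas2* lay below it. With DESeq2 the median was -0.07 and the 4 values were -0.17, -0.11, -0.47 and -1.71, all below it. The *Alas2* value was -0.80 without the cohort term. Of all genes, edgeR called 2.85% adjusted and 10.9% unadjusted, and DESeq2 7.71% and 13.7%. Among the 4 detected genes edgeR called 0 adjusted and 3 unadjusted, and DESeq2 called 1 and 3, every call being lower in the hippocampus. Unadjusted calls fell to 1 of 4 without the cohort term, beside 17.9% of all genes, and to 2 of 4 with RLE size factors, beside 10.5%. The genes were picked with their levels by region known, so nothing is read from these counts.

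The abundant globins ordered the cohorts alike in both regions. Between the hippocampus and the frontal cortex of the same cohort, the log2 CPM of *Hbb-bs* correlated with Pearson r = 0.77 and Spearman rho = 0.80 over 20 cohorts, and with r = 0.72 without the 2 cohorts farthest from the median. The values were r = 0.63, rho = 0.56 and r = 0.50 for *Hba-a1*. For the summed level r was 0.79, rho was 0.77 and r without the 2 farthest cohorts was 0.77. Within the pre-KD cohorts the summed level gave r = 0.85, within the post-KD cohorts 0.79, and with the mean of each condition removed 0.82.

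Single cohorts make this visible. The pre-KD cohort of donor 6 held 1219 CPM of globin in the hippocampus and 1151 CPM in the frontal cortex, the highest of its group in both. The post-KD cohorts of donors 2 and 4 held 1237 and 1011 CPM in the hippocampus and 1279 and 1381 CPM in the frontal cortex. At the other end, the pre-KD cohorts of donors 5 and 1 held 418 and 538 CPM in the hippocampus and 416 and 384 CPM in the frontal cortex. High levels thus belonged to cohorts of either condition. The 2 lowest cortical levels were both pre-KD, and the lowest post-KD level in the hippocampus was 512 CPM. The pre-KD and post-KD cohorts of donor 6 lay at 1219 and 636 CPM in the hippocampus.

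**Figure D4:**
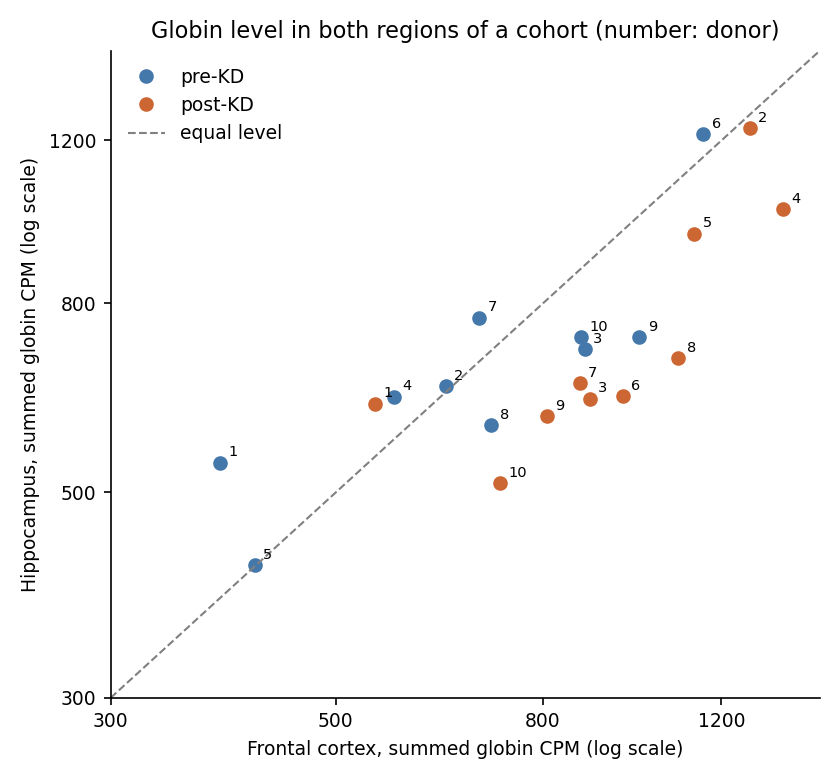
Summed CPM of the globin genes in the frontal cortex (horizontal) and hippocampus (vertical) of each of 20 cohorts, on log scales, with the donor number beside each point and a dashed line at equal levels. The points rise together (Pearson r = 0.79), and 9 of 10 post-KD cohorts lie below the line against 4 of 10 pre-KD cohorts.

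*Hbb-bt* and *Alas2* did not show as close a tie. For *Hbb-bt* the correlation between regions was r = 0.16 (rho = 0.17) and -0.04 without the 2 farthest cohorts, and for *Alas2*, on log2(CPM + 1), it was 0.41 (rho = 0.39), with 0.70 in pre-KD and 0.03 in post-KD cohorts. Over 7671 genes that averaged at least 20 counts in both regions the median r was 0.016, with quartiles of -0.14 and 0.18. In that order *Hbb-bs* was at place 4, *Hba-a1* at 31 and *Hbb-bt* at 2096. Both libraries of a cohort come from the same mice and the correlation was part of how the genes were picked, so these places are descriptions.

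Within a region, *Hbb-bs* and *Hba-a1* went together more closely in the frontal cortex (r = 0.84, rho = 0.88, and 0.84 without the 2 farthest of 20 libraries) than in the hippocampus (r = 0.60, rho = 0.42 and 0.39). *Hbb-bs* and *Hbb-bt*, which sit side by side on chromosome 7, gave r = 0.23 in the frontal cortex and 0.55 in the hippocampus, the latter 0.21 without the 2 farthest libraries. *Alas2* against *Hba-a1* gave 0.30 in the frontal cortex and 0.32 in the hippocampus, with 0.42 and 0.08 after the same step.

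The split between the beta-globin copies varied from library to library. *Hbb-bt* took 15.1% ± 4.71 of the *Hbb-bs* and *Hbb-bt* counts in the hippocampus and 18.1% ± 6.15 in frontal cortex (SD, n = 20). The lowest share was 5.50% (95% exact binomial interval 3.52% to 8.14%, 23 of 418 counts), in the post-KD hippocampus of donor 10. The highest was 34.5% (29.7% to 39.5%, 132 of 383 counts), in the pre-KD frontal cortex of donor 5, and these intervals cover counting error only. The cortex of the former cohort stood at 17.6% and the hippocampus of the latter at 13.99%, and over 20 cohorts the share in the 2 regions correlated with r = 0.12. In the frontal cortex the mean share was 20.5% ± 5.88 in pre-KD and 15.8% ± 5.72 in post-KD libraries, and in the hippocampus 14.96% ± 2.98 and 15.1% ± 6.16. *Hba-a1* took 47.5% ± 6.22 of all globin counts in the hippocampus and 45.5% ± 4.94 in frontal cortex (SD, n = 20).

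**Figure D5:**
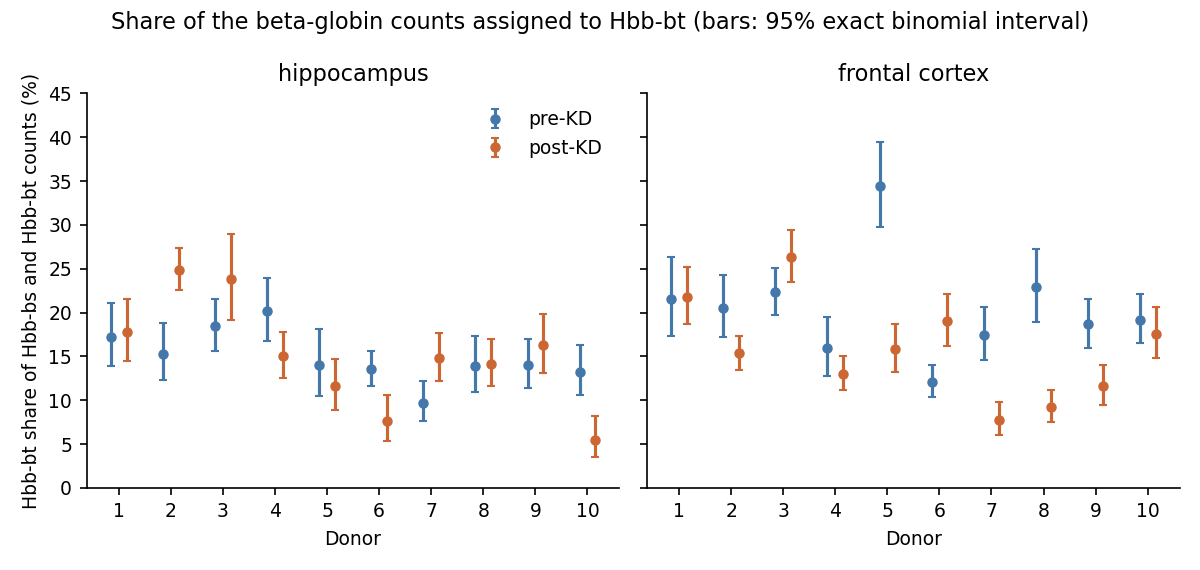
Percentage of the *Hbb-bs* and *Hbb-bt* counts that were assigned to *Hbb-bt*, by donor, condition and region, with 95% exact binomial intervals. Shares run from 5.50% to 34.5%, and the intervals of these 2 libraries (3.52% to 8.14% and 29.7% to 39.5%) lie far apart.

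Other globins, red cell genes, genes of haem synthesis, haem clearance and iron handling, and markers of neutrophils, lymphocytes and platelets were listed by role, and 118 of them beyond the 5 above were in the tables, 101 with at least 1 count. The remaining globins were nearly absent: *Hba-x*, *Hbq1a*, *Hbb-y*, *Hbb-bh0* and *Hbb-bh2* had no count, while cytoglobin (*Cygb*), which is made outside the blood lineage, averaged 140 ± 56.2 CPM in pre-KD hippocampus and 126 ± 43.2 CPM in pre-KD frontal cortex (SD, n = 10). *Ngb*, the neuronal globin, averaged 6.62 ± 7.91 and 6.36 ± 8.65 CPM in the same groups.

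Of these genes, 69 hippocampal and 76 cortical genes could be tested for post-KD against pre-KD. edgeR's quasi-likelihood test called 0 in either region after adjustment over all genes, and DESeq2 also called 0. Unadjusted p under 0.05 was reached by 7 of 69 (2 higher, 5 lower) and 7 of 76 (5 higher, 2 lower) in edgeR, beside the 10.1% and 9.68% of all genes given above. In DESeq2 it was reached by 4 of 69 and 2 of 76, beside 3.42% and 4.62% of all genes. Without a filter on low counts edgeR called 5 of 91 hippocampal genes, beside 6.16% of all 20964 genes in that fit, named here after their values were seen: *Ermap*, *Tal1*, *Cd3d*, *S100a8* and *Hbq1b*. The 40 hippocampal counts of *Ermap* all came from 1 post-KD library, and the 39 of *Tal1* from 5 pre-KD libraries.

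By role, the 13 other haem synthesis genes had a median log2 fold change of 0.09 in the hippocampus and -0.21 in frontal cortex. edgeR gave 0 calls among them, adjusted or unadjusted, in either region. DESeq2 gave 0 adjusted calls, and 1 unadjusted call in the hippocampus, beside 3.42% of all genes. *Alas1*, the form of the same enzyme used outside red cells, averaged 33.1 ± 18.1 and 28.3 ± 16.6 CPM in the pre-KD and post-KD hippocampus (SD, n = 10). Haem clearance genes gave 0 calls among 8 tested in each region, with medians of 0.06 and -0.09. Iron-handling genes gave 0 adjusted calls among 15 tested, with medians of 0.37 and 0.11. *Fth1*, the heavy ferritin chain that stores iron, named after its value was seen, was the 1 cortical gene of that list under the unadjusted threshold, with a mean of 826 ± 137 CPM over pre-KD libraries and 1012 ± 140 CPM over post-KD ones (SD, n = 10; log2 fold change 0.29, SE 0.10, edgeR adjusted p = 0.122).

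Markers of other blood cells were sparse. Neutrophil genes summed to 2.51 ± 3.47 and 3.55 ± 5.54 CPM in the pre-KD and post-KD hippocampus and to 5.85 ± 2.84 and 7.61 ± 5.40 CPM in the frontal cortex (SD, n = 10), with 2 of 16 at 0 throughout. Lymphocyte genes summed to 25.1 ± 17.9 and 34.2 ± 24.5 CPM and to 32.5 ± 12.8 and 48.4 ± 23.7 CPM. Platelet genes summed to 50.04 ± 22.9 and 40.3 ± 20.3 CPM and to 68.2 ± 33.6 and 66.3 ± 24.1 CPM, mostly *Gp1bb*. Of the platelet chemokines, *Ppbp* was at 0 in all hippocampal libraries, while *Pf4* had 24 counts there in pre-KD and 32 in post-KD libraries. *Itga2b*, a platelet integrin, had 69 and 2 counts. The red cell list without the globins summed to 623 ± 101 and 626 ± 118 CPM in the hippocampus and to 592 ± 82.4 and 624 ± 57.3 CPM in the frontal cortex, carried by *Add2*, *Car2*, *Tmcc2* and *Sptb*.

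Vessel and border tissue was followed the same way. Endothelial genes summed to 281 ± 55.4 and 278 ± 71.3 CPM in the pre-KD and post-KD hippocampus and to 334 ± 54.1 and 340 ± 74.8 CPM in the frontal cortex, with 0 of 16 genes called between conditions in either region by edgeR or DESeq2, adjusted or unadjusted. Between regions 14 of 16 had a log2 fold change below 0, as the globins had, with a median of -0.64 beside -0.17 over all genes. Of the 16, edgeR called 0 adjusted and 4 unadjusted, and DESeq2 1 and 4, every call being lower in the hippocampus, beside the shares of all genes given above for this comparison (2.85% and 10.9%, 7.71% and 13.7%). By contrast, choroid plexus genes summed to 1664 ± 609 and 1754 ± 1197 CPM in the hippocampus and to 155 ± 195 and 173 ± 129 CPM in the frontal cortex. They ran opposite to the globins between regions, with 5 of 10 called higher in the hippocampus, beside 2.85% of all genes, and *Folr1* the furthest (log2 fold change 4.72, SE 0.92). Of the meningeal genes 2 of 10 were called higher in the hippocampus, *Dcn* the further (1.32, SE 0.24). Over 20 libraries of a region, the correlation of a list's sum with the summed globin level, for 16 lists in each region (mural, microglial and neuronal genes included), ran from r = -0.54 (neocortical genes, hippocampus) to 0.47 (haem synthesis genes, hippocampus). Of these 32 correlations 7 changed sign without the 2 libraries farthest from the median globin level, and the range was then -0.59 (red cell genes, hippocampus) to 0.45 (mural genes, hippocampus). The part of these tissues in the globin levels was not tested.

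Between regions, 4 of 81 tested genes of the haemoglobin-related and blood cell lists passed edgeR's adjusted threshold, all lower in the hippocampus, beside 2.85% of all genes. DESeq2 called 5 of the 47 to which it gave an adjusted p, beside 7.71% of all genes, and *Fth1* and *Tmcc2* were higher in the hippocampus among them. With RLE size factors edgeR also called 5, beside 2.79% of all genes, with *Fth1* the 1 that was higher. The furthest of each list were *Cd4* of the lymphocyte list (log2 fold change -4.26, SE 1.17, adjusted p = 0.0141), *Gp1bb* of the platelet list (-0.80, SE 0.24, adjusted p = 0.0324) and *Slc48a1*, a haem transporter of the clearance list (-0.43, SE 0.12, adjusted p = 0.0188), in edgeR. *Cd4* rested on 11 counts over all hippocampal libraries and was at 0 in 9 of 10 of each condition. *Slc48a1* averaged 140 ± 48.2 and 150 ± 48.6 CPM in the hippocampus and 198 ± 42.9 and 179 ± 28.3 CPM in the frontal cortex. Without the cohort term 13 of 81 passed, 11 lower and 2 higher in the hippocampus, beside 9.96% of all genes. For the difference between regions in the post-KD change, edgeR gave 0 adjusted and 2 unadjusted calls among the 81 genes. Over all genes the shares were 0.0154% and 2.22%. DESeq2 gave 0 and 5, beside 0% and 4.89% of all genes. Without the cohort term *Cd3d* and *Hbq1b*, named after their values were seen, passed edgeR's adjusted threshold for this difference, 2 of 81 genes beside 1.79% of all genes.

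The genes outside the group whose level went most nearly with the summed globin level were ranked by the lower of their Pearson correlations in each region, over 20 libraries each and 7671 genes. *Rpsa*, a ribosomal protein gene with processed copies in the genome that make its counts uncertain, came first with r = 0.76 and 0.68, at mean levels of 158 CPM in each region. *Egfl7*, a secreted endothelial factor, followed with 0.58 and 0.56, and *St3gal1*, a sialyltransferase, with 0.53 and 0.65. *Fgfr1*, a fibroblast growth factor receptor, had 0.60 and 0.50. *Bud31*, *Nrp2*, *Arl6ip1*, *Las1l*, *Rnaset2a* and *Zfp507* completed the 10, the last with 0.60 and 0.45. They are the extremes of 7671 genes, and how many would reach such values by chance was not tested. *Hba-a1* and *Hbb-bs*, being part of the sum, took the top places of the ranking, and *Hbb-bt*, though also a part of it, took place 23.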

How the data were processed

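Values are from RNA-seq of pooled brain tissue. Per the methods, the authors trimmed paired reads of 69 bases, aligned them to mm10 with STAR 2.5.2a and counted genes with HTSeq 0.6.0. The methods name a TruSeq library kit, whereas the paper's resources table lists a Lexogen QuantSeq kit and the aligner HISAT2. Which of them made these counts is not settled here. They deposited unnormalized counts per Ensembl gene, 1 table per region. The submitters' processing notes also name FastQC 0.11.5, SAMtools 1.3 and DESeq2 1.24.041. The annotation release and the strand setting are not given in the sources used here. How HTSeq treated reads that match several genes bears directly on the globin copies and was not stated.

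CPM were computed with TMM factors over 40 libraries. edgeR 4.0.16 (quasi-likelihood test, R 4.3.3) was run on genes with at least 10 counts over a fit's libraries, with Benjamini-Hochberg adjustment over all genes. Standard errors given with edgeR fold changes are the size of the log2 fold change over the square root of the test's F statistic. Post-KD was compared with pre-KD within each region without a block. Region, and region by condition, were fitted with a term per cohort. DESeq2 1.42.0 was the alternative tool. Others were RLE factors, no filter, filterByExpr, the donor block and leaving out each donor. The edgeR fit between conditions within each region was also run on simulated counts with known changes. That run did not cover the fits with a cohort term or DESeq2.

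Members and lists were chosen with earlier results of these data known. All 5 members were named. Among list genes those with adjusted p under 0.05 between conditions were named, and between regions the furthest of each list, plus the 10 genes most like the globin sum and marker genes for their levels. Other genes were named after their values were seen. Some genes of the lists are not reported here. Symbols were matched for 47224 of 47643 identifiers through GENCODE M21.

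Donor numbers link pre-KD to post-KD cohorts by design. After removing condition means, the correlation across genes between libraries of a donor was -0.0279 to 0.0299 in the hippocampus and -0.0564 to 0.0317 in the frontal cortex. Between regions of a cohort it was -0.0274 to 0.208. No 2 libraries of a group were identical (0 pairs).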

Additional observations from a re-analysis of the deposited data

Results flagged for a closer look

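The gap between a group's highest or lowest library and its neighbour was taken as a share of the range, in 28 groups of 10 libraries. In 7 groups it was above Dixon's 95% critical value. For normally distributed values chance would mark about 1 group in 20. CPM and percentages were used as they stood, and their distribution was not checked. The groups share libraries and counts, so the marks are not independent. The pre-KD hippocampus of donor 6 stood above the rest with 581 CPM of *Hbb-bs*, 547 CPM of *Hba-a1* and 1219 CPM of summed globin, and the pre-KD frontal cortex of the same cohort was also the highest of its group. In the post-KD hippocampus donor 2 stood out with 559 CPM of *Hbb-bs* and 185 CPM of *Hbb-bt*. The pre-KD frontal cortex of donor 5 had an *Hbb-bt* share of 34.5% of the beta-globin counts, against 22.9% in the next library. In the pre-KD frontal cortex of donor 1, *Hba-a1* made up 31.7% of the globin counts, against 40.9% in the next library.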

How the results depend on the processing

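The correlation of summed globin between regions stayed between 0.77 and 0.85, and the cortical post-KD difference stayed above 0 under all 14 alternatives. The hippocampal difference fell below 0 in 2 of 14. Leaving out a donor gave -0.01 to 0.22 in the hippocampus and 0.32 to 0.52 in the frontal cortex. Counts of called list genes moved by over 1.5 times in 3 cases: from 0 to 5 in the hippocampus without a filter, and, with no replicate block for the cohort, from 4 to 13 between regions and from 0 to 2 for region by condition. In the same fits the calls over all genes went from 1 to 1291, from 554 to 1935 and from 3 to 348. Between regions DESeq2 and RLE size factors each called 5 list genes, with 2 and 1 of them higher in the hippocampus. A replicate block for the donor left 0 list genes called in either region. Unadjusted calls were then 2 of 69 hippocampal and 1 of 76 cortical list genes, beside 1.99% and 3.07% of all genes. Without that block the shares of all genes were 10.1% and 9.68%. The donor block gave 0.46 for *Hbb-bs* and 0.51 for *Hba-a1* in the frontal cortex. Pools hide the spread between mice, and low counts limit *Alas2* and most blood markers.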
